A study of Mus musculus with 13 samples.

Results

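Actin-binding and contractile genes encode the proteins that build, cross-link, cut, cap and pull on actin filaments, together with the proteins that tie filaments to adhesion sites and to the plasma membrane. The group comprised 44 named genes, with the actins themselves left out, and members were taken from the arrays' annotation as probe sets that carry 1 of these symbols alone. Of the 44, 42 had such a probe set among the 8251 genes on the arrays. Srf, which encodes serum response factor, and Arpc1b, an Arp2/3 complex subunit, had none and have no value here.

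Cultures of mouse embryonic stem (ES) cells had been grown with 500 pM leukaemia inhibitory factor (LIF), a cytokine that holds them undifferentiated, and were then seeded in its absence at 10000 cells per ml and lysed for RNA on day 3. Every group thus had LIF withdrawn. Groups were left without inhibitor (control), or received 10 µM PD169316 or 10 µM SB203580, inhibitors of p38 mitogen-activated protein kinases. On the MG-U74A array the S1 line, which is feeder-free, gave 2 control, 2 PD169316 and 1 SB203580 array, and the D4 line, feeder-dependent and cultured without feeders before use, gave 1 control and 1 PD169316 array. On the MG-U74Av2 array S1 gave 2 arrays of each of the 3 conditions. Each line is a single ES line, and only adherent cells were lysed, so detached cells were not measured.

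Cells hold actin as monomers and as filaments. Thymosin beta proteins keep monomers in reserve and profilins feed them to growing ends. Cofilins sever filaments, tropomyosins coat them, alpha-actinins cross-link them and myosin II pulls on them. Many of these genes are targets of serum response factor, whose cofactors MRTF-A and MRTF-B are held back by actin monomers, and whose binding motif is called the CArG box. Tagln and Cnn1 are widely used as markers of smooth muscle, and are also expressed in other cells that assemble contractile filaments.

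The values were signals per probe set, scaled on each array to a target intensity of 300. Median signals lay between 89.4 and 134, and 21.8% to 29.9% of probe sets lay at or under a signal of 32, the value to which all lower signals were raised. Levels of different probe sets, or of the same probe set on the 2 chips, were not compared, since brightness depends on the probe and the chips were scaled separately. Day 3 of the 5 hybridization days held the replicate 1 arrays of S1 on both chips (Actb 3′ to 5′ ratio 3.31 and 3.21 on its controls, 1.46 to 2.25 on all other arrays). The log2 ratios of its PD169316 pairs correlated at r = 0.431 across 5369 probe sets, against 0.055 to 0.276 for other pairs, and RNA may be shared between its arrays. The test over both chips therefore allowed for the correlation of their z scores. Whether replicates came from different cultures is not given in the labels; p-values therefore reflect only how far these arrays differ among themselves, possibly for technical reasons.

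The ES cell markers fixed for a check of the label were detected, with a signal of at least 100 for 8 of 10 genes on every U74Av2 array. Their summed signal on that chip was 37486 to 38668 in control, 25003 to 28078 with PD169316 and 25692 to 29549 with SB203580. On U74A it was 15554 to 20992 in S1 control, 10272 to 12929 with PD169316 and 18203 with SB203580, and in D4 11839 in control and 12421 with PD169316. In such bulk samples, fewer cells of a type and less RNA per cell cannot be told apart.

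The first comparison asked how PD169316 changed actin-binding genes in S1 cells 3 days after LIF withdrawal. Tagln (transgelin, an actin-bundling protein of the calponin family), Tmsb4x (thymosin beta-4, which sequesters actin monomers) and Actn1 (alpha-actinin-1, a filament cross-linker) rose. Tagln was 6.31-fold, Tmsb4x 4.99-fold and Actn1 2.55-fold higher, as the mean of both chips, and no member passed in the lower direction. Thus 3 of the 33 members tested on both chips passed (limma, adjusted p under 0.05), where 0.224% of all 5369 probe sets were called, all of them higher. Over the 33 members the median log2 fold change was 0.49, with 26 above 0. The median of all probe sets tested was 0.027, with 52.7% above 0. The members were chosen with earlier results of these data known, so their contrast with all probe sets, here and below, is no independent test.

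In signal, Tagln on U74A read 174.5 and 289.5 in the control arrays and 2386 and 1343 with PD169316, and on U74Av2 380.4 and 379.3 against 2801 and 1292. Every PD169316 array lay above every control array of its chip, and the log2 ratios of the same-numbered pairs were 1.77 to 3.77. The log2 fold change was 2.66 ± 0.33 (SE, 2 against 2 arrays on each chip; 95% interval 1.90 to 3.41; adjusted p = 0.0022), and Tagln also passed on U74Av2 alone (2.32 ± 0.35; adjusted p = 0.038). It was the only 1 of 38 members to pass there, where 0.128% of 7050 probe sets were called. Of the 6 U74Av2 arrays left out singly, Tagln kept that call only without PD169316 replicate 2, and it lost it with quantile normalization, with a floor of 64, without the filter and without the intensity trend. On U74A alone 0 of 33 members passed by limma, 7 had an unadjusted p under 0.05, as did 264 of 5681 probe sets, of which 0.0176% were called.

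Tmsb4x read 523.7 and 309.9 in control and 2780 and 1752 with PD169316 on U74A, and 536.1 and 438.4 against 3444 and 1409 on U74Av2. The groups did not overlap on either chip, and the ratios of the 4 pairs lay between 1.68 and 2.68 on the log2 scale. The fold change was 2.32 ± 0.35 (log2, SE; interval 1.51 to 3.13; adjusted p = 0.013). Its paralog Tmsb10 (thymosin beta-10), also a monomer-sequestering protein, read 9150 and 10889 in control against 10500 and 16782 on U74A, where the groups overlapped, and 6179 and 6743 against 10230 and 9363 on U74Av2, where they did not. Tmsb10 did not pass, at a log2 fold change of 0.51 ± 0.22 (adjusted p = 0.60).

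Actn1 read 962.3 and 1082 in control and 2685 and 2329 with PD169316 on U74A, and 962.5 and 1121 against 2990 and 2524 on U74Av2. Its control arrays were close to each other and all PD169316 arrays lay above them, for a log2 fold change of 1.35 ± 0.24 (interval 0.81 to 1.89; adjusted p = 0.028). The probe set carries the suffix by which Affymetrix marks probes that may match a gene family, so a share of the signal could come from related transcripts. A further Actn1 probe set without that suffix changed by 0.61 on U74A and 0.40 on U74Av2 (log2). Its groups did not overlap on U74A (100.1 and 151.1 against 165.6 and 213.9) but did on U74Av2 (137.3 and 148.1 against 147.5 and 239.5). Another Actn1 probe set, dimmer than the main one and itself marked by a different Affymetrix suffix, changed by 1.26 on U74A and 1.39 on U74Av2. The Actn1 call was lost without U74Av2 control replicate 1 (adjusted p = 0.151), U74Av2 PD169316 replicate 1 (adjusted p = 0.064), or U74A PD169316 replicate 1 (adjusted p = 0.108) or replicate 2 (adjusted p = 0.070), and without both day 3 controls (adjusted p = 0.101). The Tmsb4x call was lost only without U74A PD169316 replicate 1 among the arrays left out singly (adjusted p = 0.052).

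Actn4, the gene of the other non-muscle alpha-actinin, stayed near its control values. It read 1754 and 1535 in control and 1741 and 2042 with PD169316 on U74A, and 1936 and 1757 against 1644 and 1623 on U74Av2. The groups overlapped on U74A, PD169316 lay lower on U74Av2, and the log2 fold change was 0.01 with an interval from -0.52 to 0.54.

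**Figure D1:**
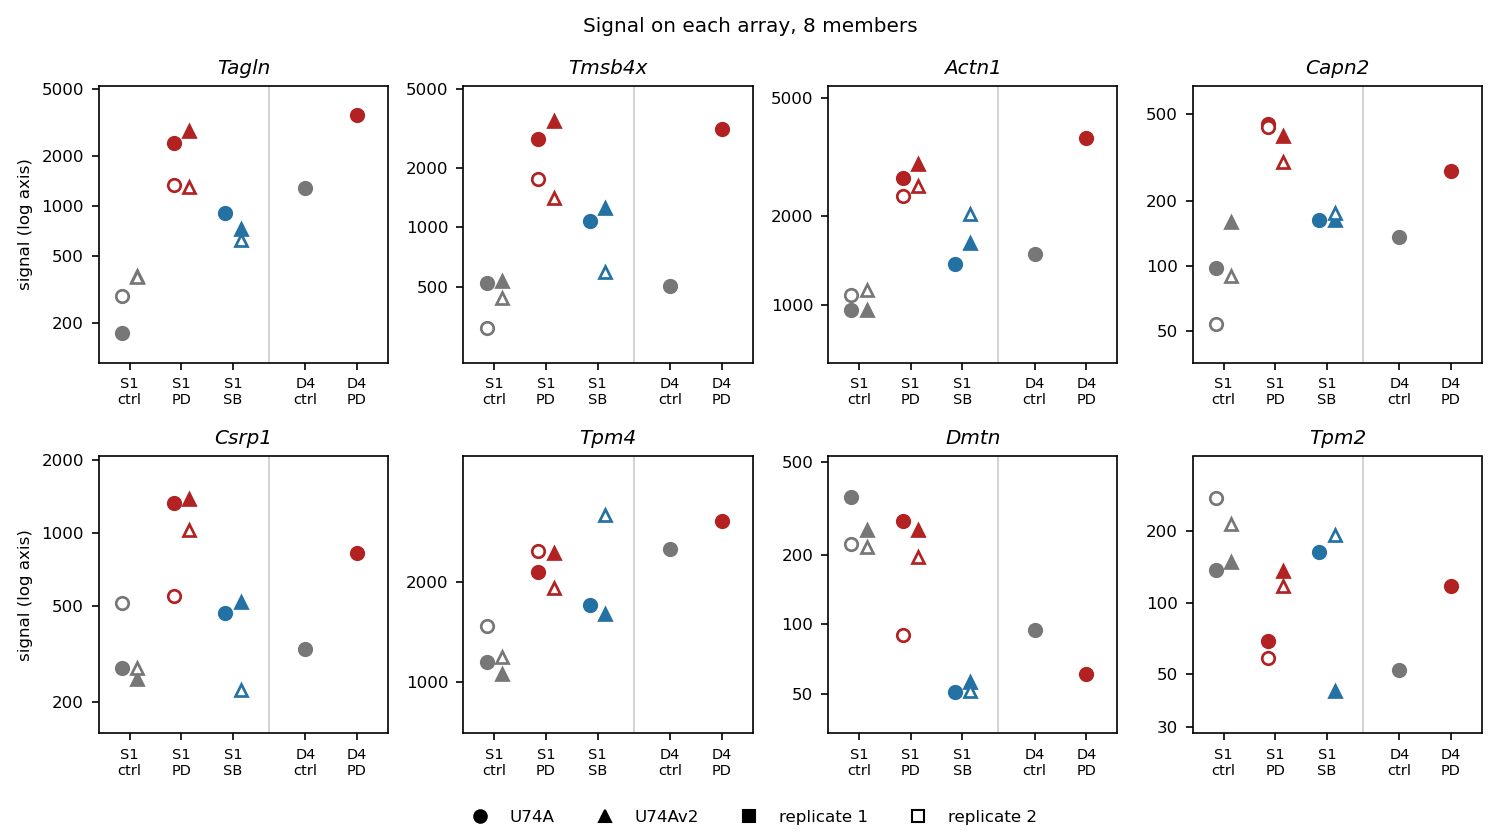
Signal on each array (log axis) for 8 members, by line and treatment (ctrl, control; PD, PD169316; SB, SB203580). Circles are U74A and triangles U74Av2, filled for replicate 1 and open for replicate 2. Levels on the 2 chips were scaled separately. For Tagln, Tmsb4x and Actn1 all S1 PD169316 arrays lie above all control arrays; for Dmtn the 3 SB203580 arrays lie at 51.1 to 56.5, below every S1 control.

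Next in order of p came Capn2 and Csrp1, of the adhesion and LIM-domain proteins. Capn2 encodes the large subunit of calpain-2, a calcium-dependent protease that cleaves talin and other adhesion proteins. It read 97.7 and 53.9 in control and 448.9 and 437.7 with PD169316 on U74A, and 159.9 and 89.5 against 395.2 and 300.1 on U74Av2. The groups were apart on both chips, and the log2 fold change of 2.07 ± 0.40 (interval 1.17 to 2.97) missed the threshold (adjusted p = 0.0524). Csrp1, a LIM-domain protein that binds alpha-actinin and zyxin, read 275.8 and 512.9 against 1336 and 550.8 on U74A, and 248.6 and 276.7 against 1383 and 1030 on U74Av2. In the replicate 2 pair of U74A the values were close, at a log2 ratio of 0.10, while the other pairs lay between 1.90 and 2.48, and the mean of 1.69 ± 0.38 did not pass (adjusted p = 0.105).

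Both genes passed with the hybridization day as a block (Capn2 adjusted p = 0.0058, Csrp1 adjusted p = 0.0015), as did Tpm4 (adjusted p = 0.035). That fit called 6 members, against 1.86% of all probe sets, and the same-numbered arrays of S1 shared their day in all but 1 case. When replicate number was the block and the U74A SB203580 array was left out, 5 members passed: Tagln, Tmsb4x, Actn1, Capn2 and Csrp1, where 1.27% of 5278 probe sets were called. The same 5 passed when the chips were taken as independent, which called 1.88% of probe sets. With 1 ratio for each of 3 hybridization days, an alternative chosen after seeing the data, only Tagln and Tmsb4x passed. Capn2, Csrp1 and Tpm4 did not. That alternative called 8 of 5369 probe sets.

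Among the other adhesion proteins, Pdlim1, a PDZ and LIM-domain protein of actin stress fibres, read 624.7 and 497.4 against 1721 and 677.9 on U74A, and 449.7 and 690.6 against 1382 and 905.8 on U74Av2. PD169316 lay above control on both chips, by 0.98 ± 0.36 on the log2 scale (adjusted p = 0.50), though a dimmer Pdlim1 probe set on U74Av2 was at -0.61. Vcl (vinculin, which links talin to actin) read 443.1 and 479.3 against 699.3 and 527.0 on U74A, and 500.7 and 600.8 against 790.3 and 863.1 on U74Av2. It too was apart on both chips, and did not pass at 0.49 ± 0.27 on the log2 scale (adjusted p = 0.82).

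Tln1 (talin-1, which couples integrins to actin) read 366.7 and 348.2 against 782.7 and 545.2 on U74A, and 385.8 and 445.6 against 728.4 and 441.3 on U74Av2. The U74Av2 groups overlapped, and the log2 fold change of 0.66 ± 0.30 did not pass (adjusted p = 0.76). A brighter Tln1 probe set on U74Av2 gave -0.11, and a dimmer one 1.51. Fhl1 (0.63), Lasp1 (0.40), Fhl2 (0.27) and Vasp (0.03) did not pass either. Lasp1, which binds actin through nebulin-like repeats, had a dimmer probe set at 1.76 on U74A and 1.18 on U74Av2, far from its main one. Zyx (zyxin) lay under the signal filter.

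Of the tropomyosins, Tpm4 read 1148 and 1480 against 2132 and 2476 on U74A, and 1059 and 1190 against 2435 and 1912 on U74Av2. All PD169316 arrays exceeded all controls of their chip, but the log2 fold change of 0.88 ± 0.27 did not pass (adjusted p = 0.30). Tpm1 was measured on U74Av2 alone and read 727.4 and 708.0 in control against 1599 and 1327 with PD169316. Its groups were apart, at a log2 fold change of 1.02 ± 0.25 (adjusted p = 0.19). Tpm2 went the other way: it read 137.7 and 275.1 against 68.9 and 58.7 on U74A, and 148.0 and 214.9 against 135.9 and 117.5 on U74Av2. PD169316 lay below control on both chips, at a log2 fold change of -1.06 ± 0.55 (adjusted p = 0.84). A dimmer Tpm2 probe set on U74Av2 was at 0.02.

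In the calponin family, Tagln2, a broadly expressed paralog of Tagln, was on U74Av2 alone. It read 1633 and 2002 in control and 7056 and 3566 with PD169316, and its groups did not overlap. The log2 fold change of 1.47 ± 0.32 did not pass over all probe sets (adjusted p = 0.13). Calponins bind actin and tropomyosin and restrain myosin. Cnn2 read 167.0 and 286.7 against 345.6 and 251.5 on U74A, which overlapped, and 179.3 and 170.4 against 568.2 and 266.8 on U74Av2, for a mean of 0.79 ± 0.38 (adjusted p = 0.76). Cnn1 (0.54) and Cnn3 (0.44, on U74Av2 alone) did not pass.

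Myosin II was represented by a heavy chain and 2 light chains. Myh9, the non-muscle myosin heavy chain IIA, read 1124 on both control arrays of U74A against 2284 and 1268 with PD169316, from the probe set present on both chips. On U74Av2 it read 890.5 and 646.4 against 2000 and 1139. The groups were apart on both chips, at a log2 fold change of 0.80 ± 0.29 (adjusted p = 0.50). The light chain genes Myl9 (0.03) and Myl6 (0.71, with an interval from -1.25 to 2.67) did not pass, and Myl6 was dim, at 7.5 to 137.5.

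Among severing and capping proteins, Capzb, the beta subunit of the capping protein of barbed ends, read 2124 and 937.8 against 2720 and 1752 on U74A, and 1500 and 1410 against 2486 and 2684 on U74Av2. The U74A groups overlapped, and the log2 fold change of 0.73 ± 0.29 did not pass (adjusted p = 0.45). A dimmer Capzb probe set on U74Av2 was at 0.09. Gsn (gelsolin, which severs and caps) read 28.8 and 179.4 against 113.5 and 157.8 on U74A, and 30.3 and 60.0 against 143.1 and 153.1 on U74Av2. Its controls lay far apart on U74A, and the mean of 1.29 ± 0.70 did not pass (adjusted p = 0.82).

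The depolymerizing proteins showed smaller differences. Dstn (destrin) was lower with PD169316 in 4 of 4 pairs and did not overlap on either chip, but only by -0.34 ± 0.20 (adjusted p = 0.87). Cfl1 (cofilin-1) was at -0.15, Cfl2 at -0.16 and Wdr1 (a cofilin cofactor) at 0.21. Capg (a capping protein of the gelsolin family), on U74Av2 alone, was at 0.26, and a dimmer Capg probe set at -0.36. The profilin genes Pfn1 (-0.06) and Pfn2 (0.30), the membrane linkers Ezr (-0.11), Rdx (0.39) and Msn (0.00, U74Av2 alone), and the cross-linkers Pls3 (0.19) and Dmtn (-0.45) did not pass. Flna (filamin A), Lcp1 (plastin-2) and Vil1 (villin) lay under the signal filter and were not tested.

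Groups that did not overlap on either chip were seen for 9 of 33 members with PD169316 higher, and the share over all probe sets was 6.82%. They were Tagln, Tpm4, Actn1, Myh9, Vcl, Pdlim1, Csrp1, Capn2 and Tmsb4x. For 2 members, Tpm2 and Dstn, PD169316 was lower without overlap (4.81% of all probe sets). Over the 4 same-numbered pairs, 14 of 33 members were higher in all, where 12.6% of all probe sets were, and 3 were lower in all, where 10.6% were.

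**Figure D2:**
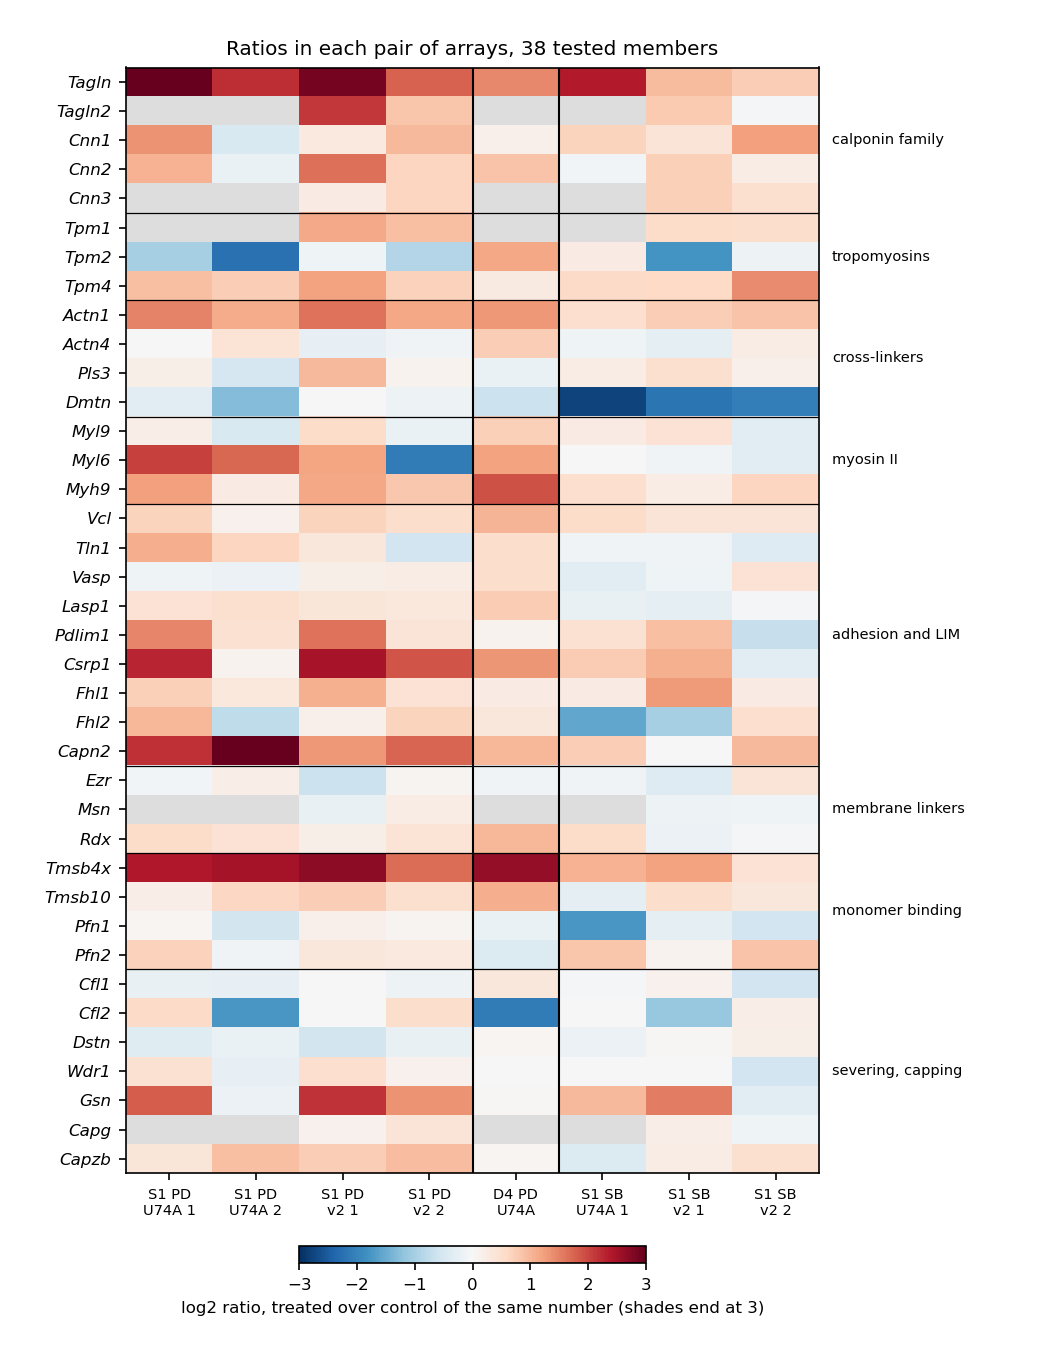
Log2 ratio of treated over control array of the same number for the 38 tested members (rows, by role) in 8 pairs (columns; v2 is U74Av2, PD is PD169316, SB is SB203580). Red is higher with the inhibitor, blue lower, grey not on that chip. Tagln and Tmsb4x are red in all 4 S1 PD169316 pairs and in D4; Dmtn is dark blue in the 3 SB203580 pairs, at -2.06 to -2.79. Myh9 and Tln1 are shown by the brightest probe set of each chip.

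Values of other cell types and of RNA quality were set beside these members. Smooth and cardiac muscle markers reached a signal of 100 for at most 2 of 9 genes on any array. Their summed signal was 324 to 514 in S1 control and 380 to 424 with PD169316 on U74A, and 388 to 465 against 269 to 662 on U74Av2, so the groups overlapped. Myh11 was at or under 32 on every U74Av2 control and PD169316 array, and Myl2 on every U74A array. On U74A, Myh11 was above 32 in replicate 2 of S1 control and of S1 PD169316, and in D4 control. Fibroblast markers, as feeder cells would carry, summed to 647 to 955 against 349 to 1131 on U74A and 1481 to 1512 against 1098 to 1612 on U74Av2. Of these markers 1 to 4 of 11 reached a signal of 100 on U74A in both groups, and 4 to 5 of 12 in control against 3 with PD169316 on U74Av2. Trophoblast markers summed to 408 to 796 in control and 1179 to 1182 with PD169316 on U74A, and to 738 to 1194 against 1083 to 1713 on U74Av2. Endoderm markers (459 to 1378 against 732 to 813 on U74A) overlapped, and endothelial and blood markers (414 to 453 against 511 to 605) did not, but did on U74Av2 (441 to 533 against 411 to 574). In S1 the lower sum of ES cell markers with PD169316 moved with the members. So did the higher sums of trophoblast markers and of endothelial and blood markers on U74A. The Actb 3′ to 5′ ratio was lower with PD169316 than in control on day 3 (2.14 against 3.31 on U74A, 2.25 against 3.21 on U74Av2). In the replicate 2 pairs it was not (1.94 against 1.67, and 1.90 against 1.89). The part of these values in the result was not tested. In D4, with 1 array a group, Tagln, Tmsb4x and Actn1 also read higher with PD169316. Marker sums there, control then PD169316, were 11839 and 12421 for ES cell and 814 and 633 for trophoblast. For endothelial and blood they were 723 and 406, and for endoderm 824 and 797. Those of fibroblast were 1149 and 1236, and of muscle 264 and 325. The part of these markers in D4 was not tested. Without both day 3 controls Tagln, Tmsb4x and Capn2 passed and Actn1 did not. The part of RNA quality was likewise not tested.

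Other genes of the pathway, from lists chosen with earlier results of these data known, did not pass by limma over both chips with PD169316. With the chips taken as independent, Cd9 (adjusted p = 0.015) and Ccn1 (adjusted p = 0.048) passed, where 1.88% of 5369 probe sets were called. In the main test over both chips 0.224% of probe sets were called, and 358 had an unadjusted p under 0.05. Over all probe sets the median was 0.027, with 52.7% above 0. Of 10 genes of filament nucleation and branching, 0 passed by limma and 0 had an unadjusted p under 0.05 (median 0.07; Actr3, an Arp2/3 subunit, 0.34). Of 13 focal adhesion genes 0 passed, 3 had an unadjusted p under 0.05 and 12 lay above 0 (median 0.50). The tetraspanin gene Cd9 was at 1.51 (adjusted p = 0.15) and the integrin beta-1 gene Itgb1 at 0.99 (adjusted p = 0.49).

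Of 9 cofactors and targets of serum response factor, 0 passed and 2 had an unadjusted p under 0.05, in opposite directions: Ccn1, a matricellular protein, at 1.49 (adjusted p = 0.29), and Mcl1, a survival protein of the BCL2 family, at -0.67 (adjusted p = 0.64). The median was 0.08. Of 22 muscle and sarcomere genes only 5 were bright enough to be tested; 0 passed and 0 had an unadjusted p under 0.05, with Tnnt1, the slow skeletal troponin T, at 0.94 (adjusted p = 0.91).

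Promoters of the members were searched for the CArG box because so many actin genes are known targets of serum response factor. RefSeq windows on GRCm38.p6, from 250 bases before to 50 after the start, were at hand for 42 of the 44 members, not for Tagln and Dmtn. An exact CArG box, whose 10 letters read the same class of bases on either strand, lay in the windows of 8 of 42 members (19%), and in 1.81% of all 27025 genes with a window. The members with a box were Srf, Vcl, Cnn2, Myl9, Myl6, Fhl1, Fhl2 and Vil1. Boxes with up to 20 bases either side follow, 5′ to 3′ on the gene's strand. The box is in capitals, to show the motif in members that hold it.
Srf, chr17:46556195-46556244, minus strand: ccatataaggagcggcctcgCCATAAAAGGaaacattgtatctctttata
Vcl, chr14:20929151-20929200, plus strand: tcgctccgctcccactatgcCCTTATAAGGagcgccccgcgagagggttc
Cnn2, chr10:79988524-79988573, plus strand: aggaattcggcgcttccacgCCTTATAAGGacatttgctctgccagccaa
Myl9, chr2:156775283-156775332, plus strand: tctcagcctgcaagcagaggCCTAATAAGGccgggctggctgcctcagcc
Myl6, chr10:128493030-128493079, minus strand: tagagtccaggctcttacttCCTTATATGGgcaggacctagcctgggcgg
Fhl1, chrX:56779561-56779610, plus strand: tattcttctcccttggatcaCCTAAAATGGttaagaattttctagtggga
Fhl2, chr1:43163963-43164012, minus strand: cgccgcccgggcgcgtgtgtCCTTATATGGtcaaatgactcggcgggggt

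The box began 56 bases before the start in Cnn2, 227 in Vcl, 161 in Myl9, 102 in Fhl1 and 31 in the Fhl2 window shown. Srf held a further box at 82 bases, beside the one shown at 62. Boxes not printed also lay at 96 bases in a further Fhl2 window and at 73 bases in Vil1. The 6 tested members with a box had log2 fold changes with PD169316 from 0.03 (Myl9) to 0.79 (Cnn2), with a median of 0.56, and 0 of them passed. The 25 tested members with a window and no box ranged from -1.06 to 2.32, with a median of 0.40. Of the members that rose, Actn1 and Tmsb4x had a window and neither held a box. Their last 120 bases before the start are printed for contrast.
Actn1, chr12:80260364-80260483, minus strand: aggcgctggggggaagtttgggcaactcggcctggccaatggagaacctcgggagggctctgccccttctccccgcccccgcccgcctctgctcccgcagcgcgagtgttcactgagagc
Tmsb4x, chrX:167209219-167209338, minus strand: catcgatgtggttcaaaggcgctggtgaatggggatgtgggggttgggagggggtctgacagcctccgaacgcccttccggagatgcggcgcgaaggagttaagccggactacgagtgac
A match to these letters is a description of the window and not a binding site, and boxes farther from the start were not searched.

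SB203580 shares its imidazole core with PD169316 and differs on a phenyl ring, which carries a methylsulfinyl group in SB203580 and a nitro group in PD169316. With SB203580 against control in S1, at the same dose and day, 0 of 33 members passed by limma and 6 had an unadjusted p under 0.05, while 0% of the 5369 probe sets passed and 162 had an unadjusted p under 0.05. The comparison holds 3 SB203580 arrays, 1 of them alone on its chip and assumed there to vary like the others. The median of the members was 0.07 (log2), with 22 of 33 above 0, and the median of all probe sets was -0.003.

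Dmtn, which encodes dematin, an actin-bundling protein best known from the red cell membrane skeleton, had the smallest p. On U74A it read 352.8 and 221.2 in control and 51.1 with SB203580, and on U74Av2 256.3 and 216.6 against 56.5 and 51.8. The groups did not overlap, and the SB203580 arrays lay close together. The log2 fold change was -2.29 ± 0.50 (interval -3.42 to -1.15; adjusted p = 0.34, or 0.068 with the chips as independent). With PD169316 it read 278.2 and 90.1 on U74A and 255.9 and 196.1 on U74Av2, overlapping control on both.

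Tagln read 907.3 with SB203580 on U74A and 733.2 and 628.6 on U74Av2, above all controls given earlier and below all PD169316 arrays. Its log2 fold change against control was 1.43 ± 0.35 (interval 0.64 to 2.21; adjusted p = 0.9998). Tmsb4x read 1071 on U74A and 1244 and 592.2 on U74Av2, likewise between the other groups, at 1.12 ± 0.36 (adjusted p = 0.9998). Actn1, at 1373 on U74A and 1616 and 2030 on U74Av2, had a log2 fold change of 0.62 ± 0.25, and Tpm4, at 1710 and at 1606 and 3158, one of 0.70 ± 0.27.

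Pfn1 (profilin-1, which delivers monomers to filament ends) read 348.6 and 508.5 in control and 104.4 with SB203580 on U74A, but 456.1 and 350.1 against 378.8 and 236.6 on U74Av2. The U74Av2 groups overlapped, and the mean of -1.21 ± 0.34 rests mostly on the single U74A array. Groups did not overlap on either chip for 7 of 33 members with SB203580 higher (6.61% of all probe sets) and for Dmtn with SB203580 lower (7.66%).

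The direct comparison of the compounds, 1 pair at a matched dose and day, placed PD169316 above SB203580 for most members. No member passed: 0 of 33 by limma, 8 at an unadjusted p under 0.05, all higher with PD169316, where 0.112% of 5369 probe sets were called and 328 had an unadjusted p under 0.05. The median over the members was 0.37 (log2), with 27 above 0, and over all probe sets 0.04. Both comparisons with control use the same control arrays, so only this difference is tested here.

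Dmtn differed by 1.84 ± 0.54 (interval 0.62 to 3.06; adjusted p = 0.34), and it alone passed when the chips were taken as independent (adjusted p = 0.037), where 0.689% of probe sets were called. Tagln differed by 1.23 ± 0.38 (interval 0.38 to 2.09; adjusted p = 0.46) and Tmsb4x by 1.20 ± 0.39 (0.30 to 2.10; adjusted p = 0.57). Csrp1, which read 465.0 with SB203580 on U74A and 517.5 and 222.9 on U74Av2, all below the PD169316 arrays, differed by 1.35 ± 0.44 (0.35 to 2.35; adjusted p = 0.55). Capn2 (1.24) and Actn1 (0.73) also lay above without overlap on either chip.

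For Tpm4 the difference of 0.18 had an interval from -0.50 to 0.86, for Vcl 0.06 with an interval from -0.65 to 0.77, and for Actn4 0.05 from -0.56 to 0.65. These intervals allow differences from -0.65 to 0.86 on the log2 scale. In all, 12 of 33 members were higher with PD169316 without overlap on either chip, where 11.7% of all probe sets were, and Dstn was lower (8.05%).

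**Figure D3:**
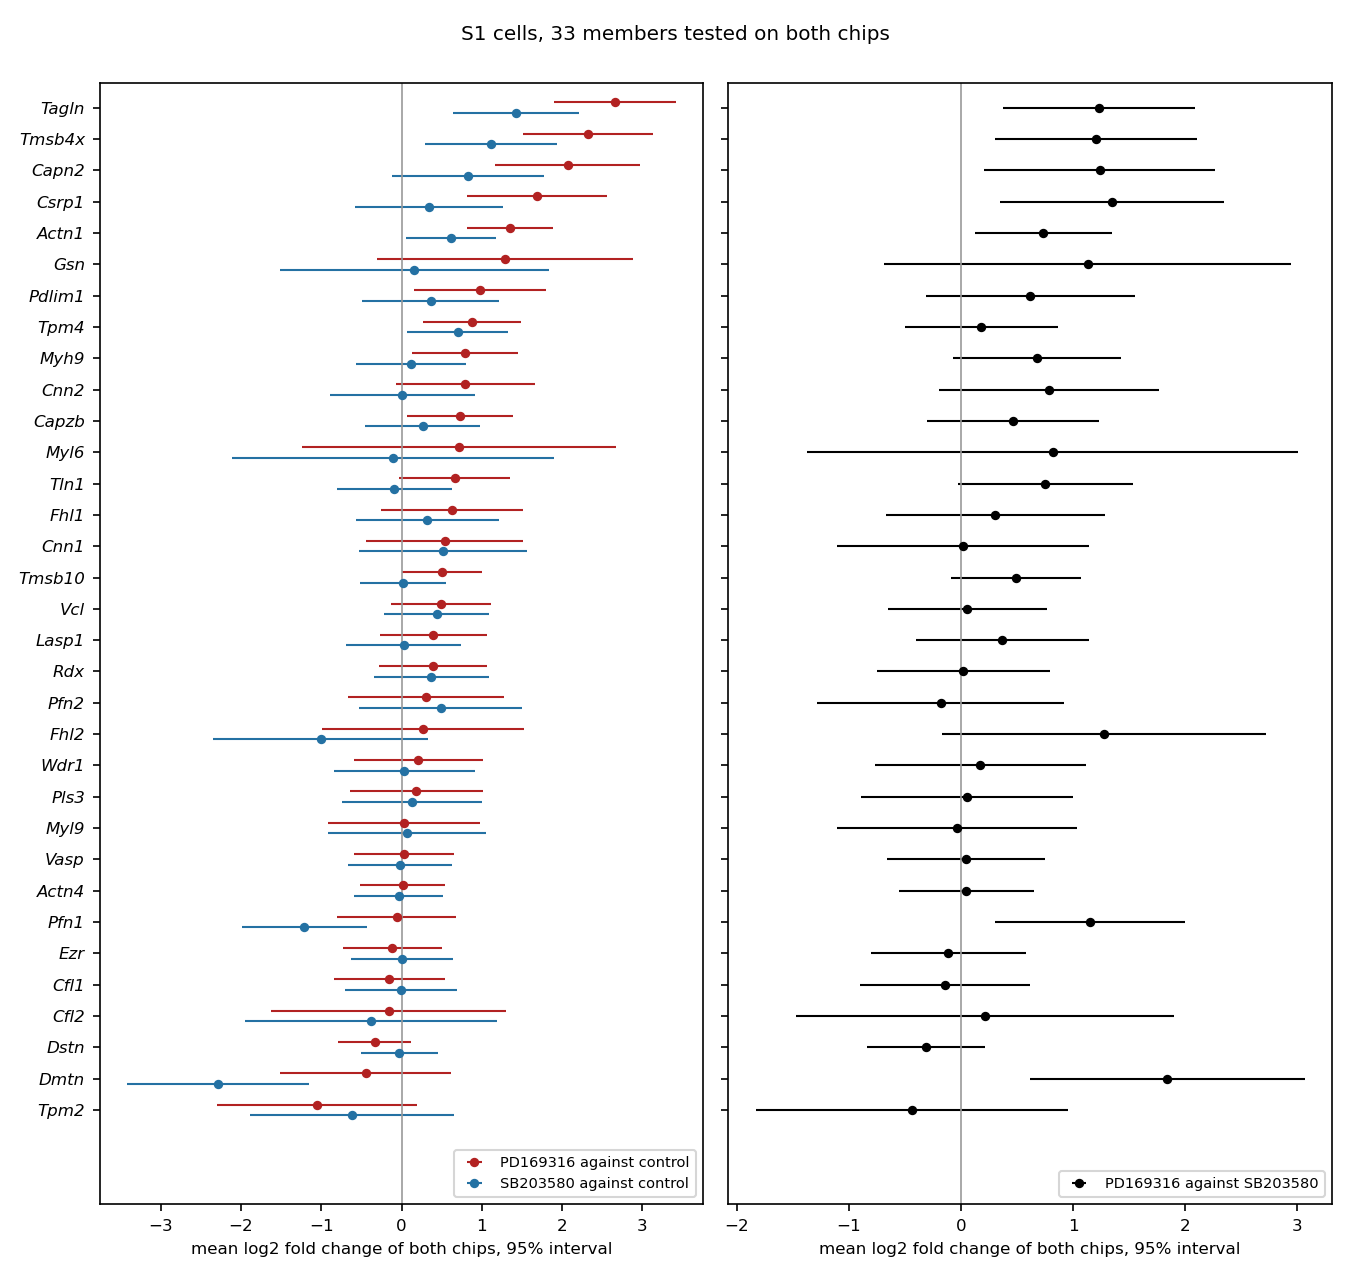
Mean log2 fold change of both chips with its 95% interval for the 33 members tested on both chips in S1 cells, ordered by the PD169316 value. The left panel shows PD169316 (red) and SB203580 (blue) against control; the right panel shows PD169316 against SB203580. Tagln leads at 2.66 with PD169316 and 1.43 with SB203580, and Dmtn is at -2.29 with SB203580.

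D4 cells offer a second line for PD169316, with 1 array a group on U74A and hence no replicate of their own. Tmsb4x read 504.7 in control and 3124 with PD169316, a log2 ratio of 2.63, beside 2.41 and 2.50 in the S1 pairs of the chip. Tagln read 1288 and 3476, a ratio of 1.43, and Actn1 1490 and 3647, a ratio of 1.29. All 3 members that rose in S1 were thus higher with PD169316 in D4 too.

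At least 2-fold higher in D4 were 10 of 33 members, where 10.9% of 6282 probe sets were. Beside those 3 they were Myh9 (1.91), Csrp1 (1.32), Myl6 (1.21), Tpm2 (1.17), Tmsb10 (1.10), Vcl (1.01) and Capn2, which went from 136.4 to 273.6. Myh9 is given here by its brightest U74A probe set, 816.6 against 3068; the probe set shared by the chips read 1064 against 1384. Cfl2 was at least 2-fold lower, at a ratio of -2.10 from signals of 137.3 and 18.0, the second of which was raised to 32 (11.4% of probe sets were that much lower). The median of the members was 0.52, with 27 of 33 above 0, and that of all probe sets -0.01.

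With the spread borrowed from S1, 0 of 33 members passed by limma and 5 had an unadjusted p under 0.05, as did 241 of all probe sets, of which 0% passed. For the difference of the PD169316 effect between lines, 0 of 33 passed and 1, Tpm2, had an unadjusted p under 0.05 (156 of 6282 probe sets, 0% called). Tagln's ratio was 1.56 smaller in D4 than in S1, with an interval from -3.20 to 0.07 on the log2 scale. Its control signal was 1288 in D4 against 174.5 and 289.5 in S1.

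**Figure D4:**
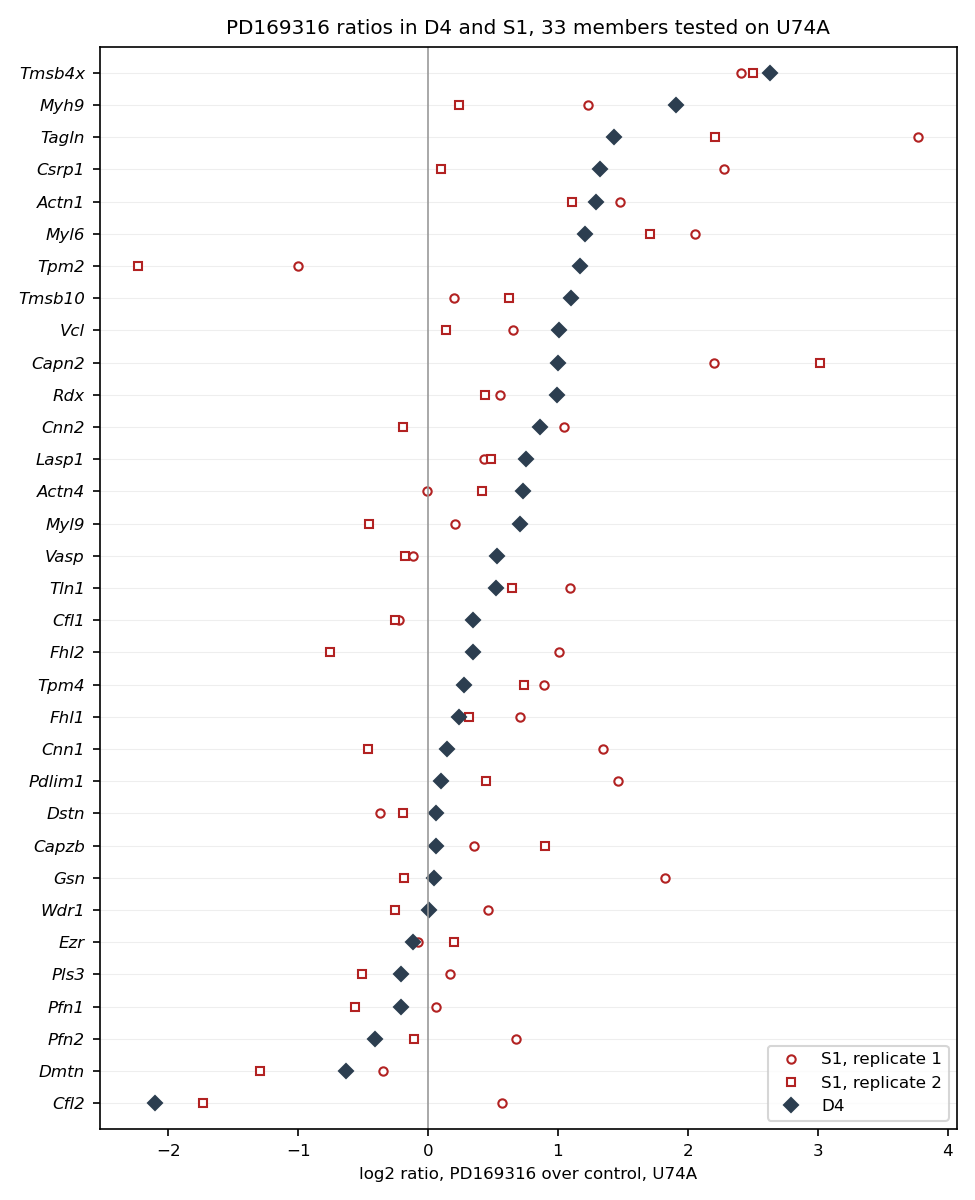
Log2 ratio of PD169316 over control on U74A for the 33 members tested there, ordered by the D4 value. Diamonds are D4 (1 array a group), open circles and squares the replicate 1 and 2 pairs of S1. Tmsb4x lies at 2.41 to 2.63 in all 3 pairs, while Tpm2 is at 1.17 in D4 and below 0 in both S1 pairs.

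The lines themselves were compared on U74A with the treatment as a term, over 2 D4 and 4 S1 arrays. Tagln was higher in D4 by 1.74 ± 0.39, Pls3 by 1.60 ± 0.36 and Cnn1 by 1.94 ± 0.45 on the log2 scale (each with adjusted p = 0.40), and Dmtn was at -1.47 ± 0.56 (adjusted p = 0.78). Pls3, the gene of the actin-bundling plastin-3, read 671.9 and 582.2 in D4 and 179.0 to 266.8 in the S1 control and PD169316 arrays. Cnn1 read 525.4 and 582.0 in D4 and 91.2 to 232.4 in those S1 arrays. Both were thus brighter on every D4 array, but 0 of 33 members passed by limma and 8 had an unadjusted p under 0.05, as did 392 of 6219 probe sets, of which 0% passed. The D4 arrays were hybridized on a day of their own, so line and day cannot be told apart. Fibroblast marker sums were 1149 and 1236 in D4 and 349 to 1131 in those S1 arrays, and their part was not tested.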

How the data were processed

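Signal intensities per probe set were deposited by the authors; per the labels' protocols and the submitters' processing notes they come from Microarray Suite 5.0, scaled to a target intensity of 300. Per the labels, 5 µg of RNA gave 10 µg of labelled cRNA per array. Here signals under 32 were set to 32 and taken to log2. Probe sets with at least 100 on at least 2 arrays were tested within each chip with limma 3.58.1 (R 4.3.3; all S1 groups in 1 fit, intensity trend). For both chips, z scores were summed and divided by their SD given their correlation (0.429 for PD169316, 0.207 for SB203580, 0.441 between the inhibitors). Benjamini-Hochberg adjustment ran over all probe sets tested, and intervals are 95%. Control probe sets of the array and those at 0 on all U74A arrays were left out.

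Each gene was taken by its brightest probe set, or over both chips by the brightest that both hold. Array values are given for members that passed, then by smallest p until 14 were named, and for the 3 with the smallest p with SB203580 and between the inhibitors; members on U74Av2 alone are given from that chip. Array values of Actn4, Tpm2, Pfn1, Pls3, Cnn1, Cfl2 and Myl6 were added after their values were seen. Members and lists were chosen with earlier results of these data known. Same-numbered arrays shared a hybridization day, per the file headers, except SB203580 replicate 2 on U74Av2, and their deviations correlated at 0.211 on U74A and at 0.179, 0.08 and 0.17 on U74Av2. The scripts were tested on simulated data. Alternatives were other floors, filters, normalization, spread models, blocks, probe sets and arrays left out. The result of 1 pathway list is not reported here.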

Additional observations from a re-analysis of the deposited data

Results flagged for a closer look

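Tpm2, a tropomyosin gene, drew attention because its PD169316 effect differed in direction between the lines. In D4 the signal was 52.3 in control and 117.6 with PD169316, a log2 ratio of 1.17, while in the S1 pairs of the same chip it went from 137.7 to 68.9 and from 275.1 to 58.7. The difference of the effects was 2.78 ± 1.15 (SE, log2; unadjusted p = 0.039 by limma, adjusted p = 0.9997), so it did not pass over all probe sets, and D4 has 1 array a group. On U74Av2 the S1 ratios were -0.12 and -0.87, and a dimmer Tpm2 probe set there had a log2 fold change of 0.02 in S1.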

How the results depend on the processing

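With PD169316 over both chips 3 members passed. The count was 5 with the chips as independent, 0 without the signal filter (Tagln adjusted p = 0.422, Tmsb4x 0.497, Actn1 0.347), 0 without the intensity trend (Tagln adjusted p = 0.0657, Tmsb4x 0.159, Actn1 0.289), and 1 to 4 with single arrays left out. A minimum signal of 200 left 2 (Actn1 adjusted p = 0.0544), where 8 of 3816 probe sets were called. Without the filter 0 of 9977 probe sets were called, and without the trend 5 of 5369. With the second brightest probe set where a gene has one, Actn1 did not pass by limma (adjusted p = 0.372). That Actn1 probe set was the one at 1.26 on U74A and 1.39 on U74Av2. Tagln and Tmsb4x have 1 probe set each and were not tested this way. Chosen after seeing the data, 1 ratio for each of 3 hybridization days gave 2 members (Tagln and Tmsb4x). That setting called 8 of 5369 probe sets. Without the trend it gave 0 members, and 0 of 5369 probe sets were called. Tagln passed in 21 of 24 alternatives, Tmsb4x in 20, Actn1 in 13, Capn2 in 5 and Csrp1 in 4, each with the same direction in all 24. For Tagln and Tmsb4x the counts include the setting with the second brightest probe set, which used their only probe set again.

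With the replicate block, and without the U74A SB203580 array, the count was 5 over both chips (1.27% of all probe sets called), 5 on U74Av2 alone (0.752%, against 1 member and 0.128%) and 2 on U74A alone (0.162%, against 0 members and 0.0176%). The hybridization day as a block gave 6 over both chips (1.86%, against 0.224%). On U74Av2 alone the count was 0 with quantile normalization, without the filter, with a floor of 64 or without the trend, and 0 to 3 with single arrays left out. On U74A alone it was 1 at a minimum of 200 and 0 to 1 with single arrays left out. The minimum of 200 called 6 of 3990 probe sets on U74A. Between the inhibitors 1 member passed with the chips as independent, where 0.689% of probe sets were called. Without the filter 2 passed in D4 and 2 for the difference between lines, Vil1 and Zyx of 37 members in each case, where 4.35% and 3.94% of all probe sets were called. Vil1 and Zyx were lower with PD169316 in D4, at log2 ratios of -2.55 and -1.91. Their D4 control signals were 186.8 and 120, and both lay under 32 with PD169316. Both also lay under 32 on every S1 array of U74A. With signals raised to 32, S1 held no spread of its own for these genes, so each call rests on 1 D4 control array. No member that passed over both chips changed sign with PD169316, but 9 of the 33 tested members did in at least 1 alternative (Actn4, Pls3, Myl9, Vasp, Ezr, Pfn1, Cfl1, Cfl2 and Wdr1, at -0.16 to 0.21 over both chips). SB203580 against control and the line comparison had 0 members throughout. The causes of these changes were not tested. With 2 arrays a group, or 1, and members such as Myl6, Gsn and Cfl2 near the floor, precision was limited.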
